A study of Homo sapiens with 6 samples.

Results

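Genes of protein folding in the endoplasmic reticulum (ER) and of the unfolded protein response were followed in MV4;11 cells, an established human myeloid leukemia line that carries a rearranged MLL gene. The set holds 44 genes of the 18239 measured, a list of names put together by known function at a time when earlier results of these data were known. They fall into 4 classes, which are 20 chaperones and foldases, 8 genes of XBP1 and ATF6 signalling, 10 genes of ER-associated degradation, and 6 genes of translocation into and export from the ER. All probe sets that the platform annotates to a member were taken, 147 to a member alone and 1 shared by ATF6B with another gene, which was left out of the counts. The cells were exposed for 6 days either to 4 µM MI-389, a compound that the labels name as a menin-MLL inhibitor, or to the solvent alone. Both groups contained 0.25% DMSO, and medium and compound were renewed on day 3. Each group held 3 arrays. A cell line in culture holds no other cell types of a marrow. The labels call the samples biological replicates without saying how the cultures were kept apart, so what the tests take as error is array-to-array spread that may be partly technical.

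Proteins bound for the cell surface, for secretion or for the lysosome enter the ER through the SEC61 channel and are folded there by chaperones such as BiP (HSPA5) and by disulfide isomerases. When unfolded protein accumulates, sensors in the ER membrane respond. IRE1 (ERN1) splices the XBP1 transcript so that it encodes an active transcription factor, ATF6 is cut in the Golgi by the proteases encoded by MBTPS1 and MBTPS2 and becomes a transcription factor, and PERK (EIF2AK3) slows translation and favours ATF4. XBP1 and ATF6 raise chaperones and the machinery that returns failed proteins to the cytosol for destruction, called ER-associated degradation. XBP1 is known for its part in secretory cells such as plasma cells, and in dendritic cells.

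XBP1 itself and a group of genes of ER-associated degradation and translocation were lower with MI-389. The chaperones and foldases moved both ways, as genes on the array did in general. Of the 44 members, 17 fell and 10 rose at an adjusted p under 0.05 (limma, Benjamini-Hochberg over all 18239 genes), which is 38.6% and 22.7% of them. Over all genes tested 15.7% were lower and 18.4% higher, or 34.1% in either direction, against 27 of the members (61.4%). In a bulk culture fewer cells with a transcript and less of it per cell cannot be told apart. Many genes on the array are dim, so a second background is closer to these members. The highest value of the control probe sets of nonspecific sequence, with the one of highest GC content left out, was 5.49 on the log2 scale and serves as a guide to background. Of the genes with a group mean above it, 27.7% were called lower and 30.7% higher, or 58.4% in either direction, against 41.5% and 22.0% of the 41 members above it (26 genes in all). Among them CALR passed through its MI-389 mean alone. Changes of at least 0.5 on the log2 scale were called lower for 8 members and higher for 3, or 18.2% and 6.82%, where 5.91% and 6.61% of all genes stood, and 10.8% and 12.1% of those above the guide. The median change of the members was -0.06, beside 0.02 for all genes. The 3 arrays of one group lay wholly above or below those of the other for 32 members (72.7%), beside 45.3% of all genes and 70.5% of those above the guide. The counts of large changes and of groups apart are over all 44 members. They include 3 under the guide in both groups, of which ERO1B is 1 of the 3 large rises.

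By class, 7 of the 20 chaperones and foldases rose and 6 fell, with a median change of 0.01. These counts stand near the 30.7% higher and 27.7% lower of all genes above the guide, although 1 of the 7, ERO1B, lay under it in both groups. In signalling, 1 of 8 rose and 2 fell, with a median of -0.03. In ER-associated degradation 2 of 10 rose and 6 fell, with a median of -0.19, and in translocation and export 0 of 6 rose and 3 fell, with a median of -0.26. These directions hold for the values as deposited. The 9 probe sets of the hybridisation spike-ins, foreign transcripts added before hybridisation, were 0.25 higher with MI-389. Shifting every array to a common spike-in level lowered the median over all genes to -0.23 and that of the members to -0.31. Of the 44 members, 4 were then called higher and 31 lower. Of all 18239 genes, 1397 were called higher and 11056 lower on the same scale, so most of the array was lower there. The shift is the same for every gene, so it leaves the order of the changes as it was. Members that were called higher and turned sign with it are HSP90B1, UGGT1, PDIA4 and CRELD2. In 6 members called here the call was lost when some single arrays were left out, namely HSPA5, HSP90B1, PDIA4, DNAJC10, SYVN1 and DERL2. The other 21 called members kept their call and direction without any 1 of the 6 arrays.

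**Figure D1:**
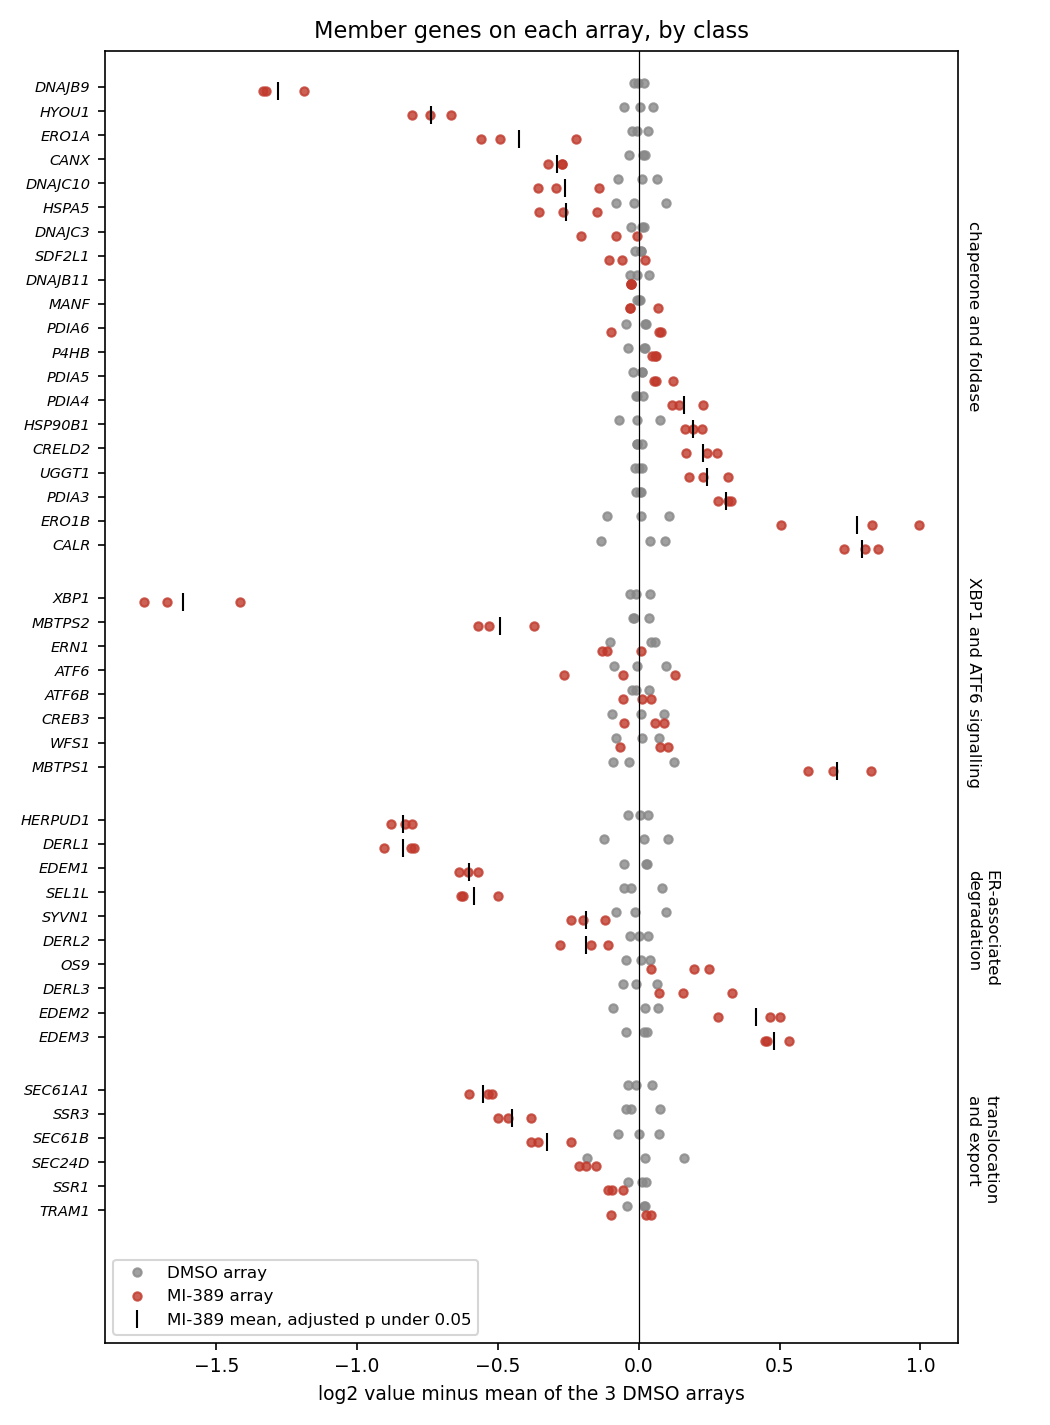
Log2 value of each member on each array minus the mean of its 3 DMSO arrays (x axis, log2 units), with genes in rows by class. Grey points are DMSO arrays, red points MI-389 arrays, and a black tick marks the MI-389 mean of genes with an adjusted p under 0.05. The red points of XBP1, DNAJB9 and HERPUD1 lie far left of the grey ones, and those of CALR, ERO1B and MBTPS1 to the right.

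Promoters are shown because the known binding sites of the ATF6 and XBP1 proteins define part of this response, and because the members that carry them were called in both directions here. RefSeq promoter sequences of GRCh38.p14, running from 250 bases before to 50 bases after each start site, were found for 39 of the 44 members. The ER stress response element (ERSE), searched on both strands as CCAAT and CCACG with 9 bases of any kind between them, is read by ATF6 together with the factor NF-Y. It was present in 27 of 35116 promoters of that length (0.0769%), which belong to 25 of 27305 genes. Among these genes were 8 of the 39 members (20.5%), with the element in at least 1 promoter, namely HSPA5, HSP90B1, CALR, CANX, PDIA6, ERO1B, CRELD2 and XBP1. The members were listed for their part in this response, which the element partly defines, so this share is not an independent result. The 250 bases before the start site are given for HSPA5 (chr9:125241344-125241593, minus strand) and for XBP1 (chr22:28800570-28800819, minus strand), both 5′ to 3′ on the gene's strand with the element in capitals.
HSPA5: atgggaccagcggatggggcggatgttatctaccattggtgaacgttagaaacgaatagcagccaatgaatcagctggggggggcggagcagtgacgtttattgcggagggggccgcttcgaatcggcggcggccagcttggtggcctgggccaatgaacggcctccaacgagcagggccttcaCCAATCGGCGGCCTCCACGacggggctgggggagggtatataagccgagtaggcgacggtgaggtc
XBP1: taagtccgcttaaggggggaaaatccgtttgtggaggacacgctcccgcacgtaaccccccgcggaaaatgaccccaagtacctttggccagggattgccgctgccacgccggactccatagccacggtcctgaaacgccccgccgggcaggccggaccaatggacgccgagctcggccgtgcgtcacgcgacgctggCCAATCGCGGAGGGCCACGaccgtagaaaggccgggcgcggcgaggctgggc
The element began 66 bases before the start site in HSPA5 and 52 before it in XBP1.

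The elements of 4 further genes are given with their flanks, since 3 of these genes rose and 1 fell. CANX has the element on the gene's strand at chr5:179698766-179698808, and HSP90B1 has it on both strands, of which the one at chr12:103930204-103930246 is shown. In CALR (chr19:12938372-12938414) and CRELD2 (chr22:49918542-49918584) it lies on the opposite strand and so reads as its complement. All 4 genes are on the plus strand.
CANX: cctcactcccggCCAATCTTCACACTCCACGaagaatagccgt
HSP90B1: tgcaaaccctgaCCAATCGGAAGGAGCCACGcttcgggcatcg
CALR: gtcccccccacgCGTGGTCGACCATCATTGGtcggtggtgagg
CRELD2: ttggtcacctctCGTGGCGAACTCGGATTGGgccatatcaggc
Of the 8 members with the element, 4 rose (CALR, ERO1B, CRELD2 and HSP90B1), 3 fell (XBP1, CANX and HSPA5), and PDIA6 did not pass the test. The changes ranged from -1.62 for XBP1 to 0.79 for CALR. HSP90B1 and CRELD2 turned sign on the spike-in scale, HSP90B1 and HSPA5 lost their calls without some single arrays, and ERO1B lay under the guide in both groups. CALR lay under the guide with DMSO, and its other probe set, at 0.09, was not called. Of 10 further tested genes with the element, 3 were called lower and 1 higher, beside 15.7% and 18.4% of all genes tested.

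A shorter form, ERSE-II, searched on both strands as ATTGG and CCACG with 1 base of any kind between them, was in 0.0541% of the promoters and in those of HERPUD1, HYOU1 and SDF2L1. The core of the unfolded protein response element (UPRE), TGACGTGG on either strand, was in 0.729% of the promoters and in those of DNAJC10, HYOU1 and SSR3. HYOU1 and HERPUD1 are shown with ERSE-II in capitals, HYOU1 from the minus strand at chr11:119057368-119057402 and HERPUD1 from the plus strand at chr16:56932013-56932047.
HYOU1: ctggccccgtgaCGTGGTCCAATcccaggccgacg
HERPUD1: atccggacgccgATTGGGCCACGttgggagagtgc
In HYOU1 this ERSE-II match shares 5 bases with a UPRE match, and a second ERSE-II lies nearer to the start site. HERPUD1 and HYOU1 fell and SDF2L1 did not pass the test, and all 3 members with a UPRE core fell, of which DNAJC10 lost its call without some single arrays. Among other tested genes, 13 had an ERSE-II, with 2 higher and 2 lower, and 159 had a UPRE core, with 28 higher and 29 lower. Of all genes tested 18.4% were higher and 15.7% lower, near the shares among these other genes with a UPRE core. A composite element bound by ATF4 and its partners, searched as TGATGNAAN on both strands, was in 3.61% of all promoters and, among members, in that of HERPUD1. A match is a description of letters in this window, and binding was not measured. A missing match does not show that a factor cannot act on a gene.

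**Figure D2:**
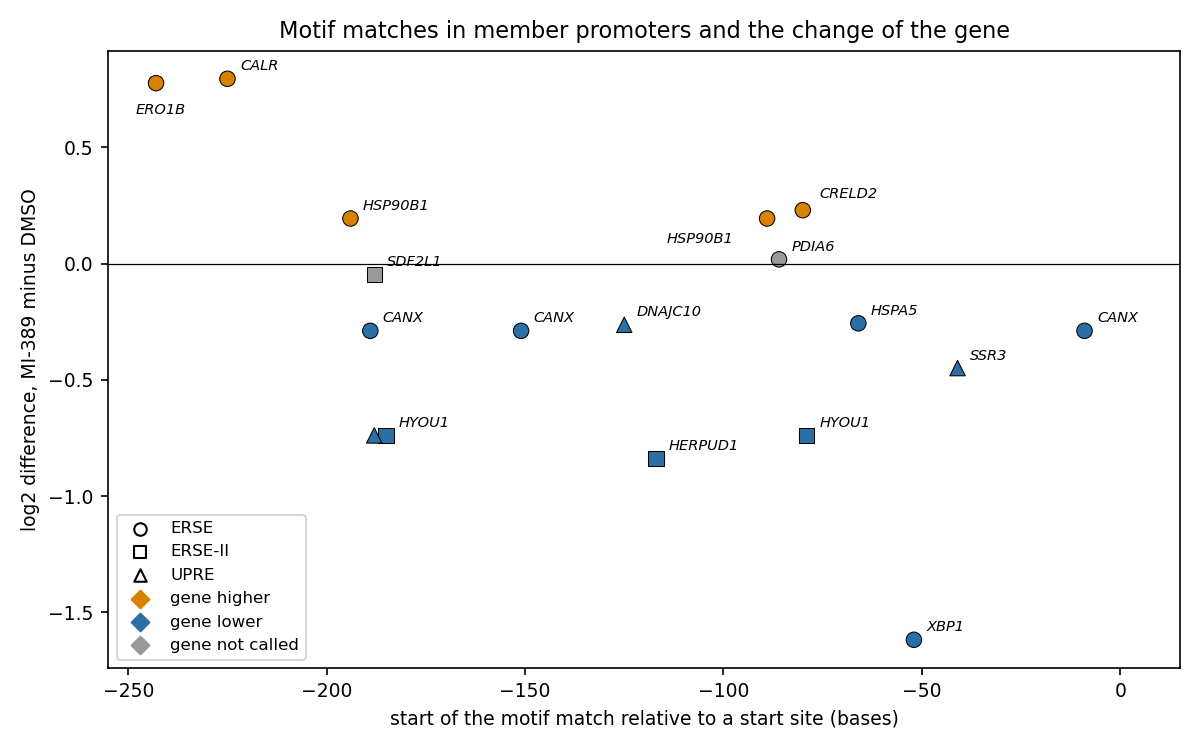
Start of each match to ERSE (circles), ERSE-II (squares) or UPRE (triangles) relative to a start site (x axis, bases) against the log2 difference of the gene, MI-389 minus DMSO (y axis). CANX appears 3 times because its single element lies near 3 listed start sites. ERSE matches stand at changes from -1.62 (XBP1) to 0.79 (CALR), and the UPRE matches belong to 3 members called lower (HYOU1, DNAJC10 and SSR3).

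Among the genes of signalling, XBP1, the transcription factor of the IRE1 arm, had the largest change of all members. Its log2 values were 10.67, 10.74 and 10.69 on the DMSO arrays and 9.02, 9.28 and 8.94 on the MI-389 arrays. All 3 treated arrays lay more than 1 log2 unit below every control, and the highest of them was MI-389 replicate 2. The change was -1.62 (SE 0.08, 95% interval -1.81 to -1.43, limma adjusted p = 2.49e-07), a 3.07-fold lower level. XBP1 was read by 1 probe set, and the arrays do not tell its spliced from its unspliced form here.

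Both proteases that release ATF6 in the Golgi changed, in opposite directions. MBTPS1, the site-1 protease, had log2 values of 6.80, 6.58 and 6.64 with DMSO and 7.36, 7.50 and 7.27 with MI-389. The groups were clearly apart and the gene rose by 0.71 (SE 0.08, adjusted p = 5.85e-05), although the other 2 of its 3 probe sets stayed under the background guide with changes of 0.12 and 0.06. Where probe sets without the suffixes a, s or x were preferred, MBTPS1 was read by the dimmer of these 2 and was not called. That probe set had means of 3.20 with DMSO and 3.26 with MI-389. MBTPS2, the site-2 protease, which cuts after it, fell by 0.49 (SE 0.06, adjusted p = 1.92e-04). The fall of MBTPS2 was seen in its brighter probe set, while the dimmer one, under the guide, differed by 0.16 and was not called.

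Neither ATF6 nor ERN1, the sensor genes among the members, was called on the values as deposited. On the spike-in scale both were called lower. ATF6 had log2 values of 6.53, 6.43 and 6.35 with DMSO and 6.38, 6.56 and 6.17 with MI-389, which overlap. Its difference was -0.06 (95% interval -0.28 to 0.15), and of its other 2 probe sets 1 was called lower at -0.28. ERN1, the gene of IRE1, stood at 4.15, 4.00 and 4.16 with DMSO and at 4.11, 3.99 and 3.97 with MI-389. These values lie under the background guide, so that a change of ERN1 could be missed. ATF6B, a relative of ATF6, differed by -0.0009 (interval -0.12 to 0.12), and CREB3, a factor released in the same way, by 0.03 (interval -0.12 to 0.18). WFS1, an ER membrane protein that restrains ATF6, lay under the guide in both groups and differed by 0.04.

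**Figure D3:**
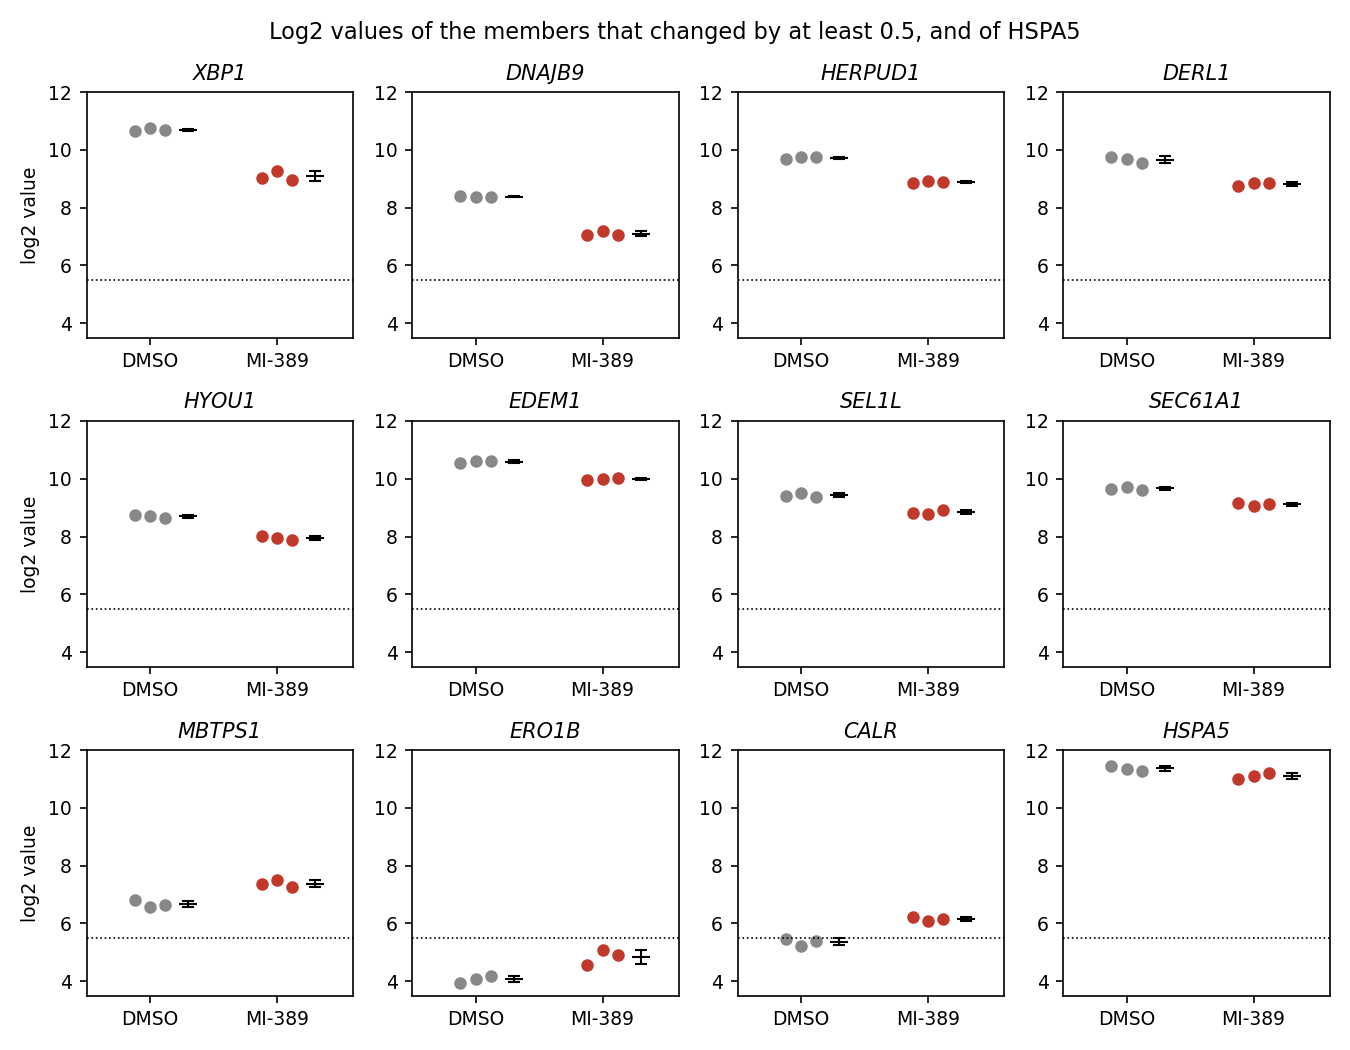
Log2 values (y axis) on the 3 DMSO (grey) and 3 MI-389 (red) arrays for the 11 members that changed by at least 0.5 and for HSPA5, with mean and SD in black and the background guide as a dotted line. Heights of different genes are not comparable, as each probe set has its own response. Within each panel the treated arrays are apart from the controls, and ERO1B stays below the guide.

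Among the chaperones, HSPA5 encodes BiP, the abundant HSP70 of the ER that holds the sensors inactive. Its probe set of highest mean read 11.46, 11.35 and 11.28 with DMSO and 11.01, 11.10 and 11.22 with MI-389, so that the groups were apart by a small gap. This gave a change of -0.26 (SE 0.07, limma adjusted p = 0.0187). The adjusted p ranged from 0.00911 to 0.0785 when single arrays were left out, and the call was lost without DMSO replicate 1 or 2 and without MI-389 replicate 1 or 2. All 6 probe sets of HSPA5 were nevertheless called lower, with changes from -0.26 to -1.01, and the one of highest mean had the smallest.

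The partners of BiP differed among themselves. HYOU1, a large HSP70-like protein that exchanges the nucleotide of BiP, read 8.75, 8.70 and 8.65 with DMSO and 8.03, 7.96 and 7.89 with MI-389. All treated arrays were lower, and the gene fell by 0.74 (SE 0.06, adjusted p = 5.81e-06). Of its 9 probe sets 4 were called lower and 5, all under the background guide, were not. The 3 above the guide ranged from -0.44 to -0.92. DNAJB9 (ERdj4), a J-domain partner of BiP known as a target of XBP1, read 8.40, 8.38 and 8.37 with DMSO and 7.06, 7.19 and 7.05 with MI-389. With little spread in either group, DNAJB9 fell by 1.28 (SE 0.06, adjusted p = 1.03e-07), 2.43-fold, and a further probe set of it gave -1.48. Among the other J-domain partners DNAJC10, which also reduces disulfides, fell by 0.26, a call lost without DMSO replicate 2 or MI-389 replicate 1. DNAJB11 (difference -0.03, interval -0.14 to 0.09) and DNAJC3 (-0.10, interval -0.24 to 0.04) were not called. SDF2L1, a partner of the J-domain proteins, differed by -0.05 (interval -0.17 to 0.08).

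HSP90B1, the HSP90 of the ER known as GRP94, went the opposite way to HSPA5. It read 12.24, 12.16 and 12.10 with DMSO and 12.36, 12.33 and 12.39 with MI-389, a rise of 0.19 (SE 0.06, adjusted p = 0.0267), and its 7 probe sets ranged from 0.18 to 0.55, with 6 called higher. The call at 0.19 was lost without DMSO replicate 2 or 3 and without MI-389 replicate 1 or 3, and HSP90B1 stood at -0.06 on the spike-in scale. In the lectin cycle that folds glycoproteins, the membrane chaperone CANX fell by 0.29 (SE 0.05, adjusted p = 0.00165). All 9 probe sets of CANX were called lower, down to -0.77. CALR, its soluble counterpart, read 5.46, 5.23 and 5.40 with DMSO, all under the background guide, and 6.21, 6.09 and 6.16 with MI-389. The treated arrays were all above the guide, and by this probe set CALR was at least 1.59-fold higher with the guide as the control level (fitted change 0.79, SE 0.07, adjusted p = 1.20e-05). CALR was read by 2 dim probe sets, of which the other differed by 0.09. UGGT1, the enzyme that returns misfolded glycoproteins to these lectins, rose by 0.24 in its main probe set, while its other 2, not called, stood at -0.17 and -0.19, so the sign for UGGT1 depends on the probe set.

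The disulfide isomerases showed small differences. PDIA3 (ERp57), the isomerase that works with CANX and CALR, rose by 0.31 (SE 0.05, adjusted p = 9.10e-04), but its second probe set gave -0.19 and was not called. The call was lost on the spike-in scale (0.0564) and with the mean of both probe sets (0.0573). PDIA4 rose by 0.16, with an adjusted p of 0.0458 from limma over genes. Over all probe sets PDIA4 passed in 0 of its 3. Of the 6 fits that each left out an array, it passed the threshold in the one without MI-389 replicate 3. PDIA5 (0.08, interval -0.04 to 0.20), PDIA6 (0.02, interval -0.13 to 0.16) and P4HB (0.05, interval -0.06 to 0.17) were not called. For PDIA6, 1 of 3 probe sets was called lower, at -0.31. Of the oxidases that reload these enzymes, ERO1A fell by 0.43 (SE 0.08), called in 1 of its 2 probe sets. ERO1B read 3.96, 4.08 and 4.18 with DMSO and 4.57, 5.06 and 4.90 with MI-389. Its groups were apart and the gene was called higher (fitted change 0.78, SE 0.11, adjusted p = 3.94e-04), but both lie under the background guide and no fold is given. CRELD2, a secreted ER stress protein, rose by 0.23 (SE 0.05) in its main probe set. The other, under the guide, gave -0.0299, CRELD2 stood at -0.0232 on the spike-in scale, and the mean of both probe sets (0.0997) was not called. MANF, another secreted ER stress protein, differed by 0.0017 (interval -0.12 to 0.12).

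In ER-associated degradation HERPUD1, DERL1, EDEM1 and SEL1L had the largest falls. HERPUD1, which organises the ligase complex, read 9.69, 9.76 and 9.74 with DMSO and 8.85, 8.93 and 8.90 with MI-389. The groups were well apart, and HERPUD1 fell by 0.84 (SE 0.05, limma adjusted p = 1.13e-06), with 3 of 4 probe sets between -0.78 and -0.84 and the last under the guide. DERL1, a channel protein, read 9.76, 9.67 and 9.54 with DMSO and 8.75, 8.85 and 8.86 with MI-389. It fell by 0.84 (SE 0.07, adjusted p = 7.26e-06), and its 3 probe sets reached -1.11. SEL1L, the adaptor of the ligase HRD1, read 9.40, 9.51 and 9.37 against 8.80, 8.80 and 8.93, a fall of 0.58 (SE 0.06, adjusted p = 4.95e-05). For SEL1L 2 of 4 probe sets were called lower, 1 of them under the guide, and 1 above the guide differed by 0.10 and was not called.

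SYVN1, the gene of HRD1 itself, changed by -0.19 and DERL2 by -0.19, with adjusted p-values of 0.0481 and 0.0386 in limma over genes. Over all probe sets neither passed. SYVN1 lost its call without DMSO replicate 1 or 2 or MI-389 replicate 1 or 3, and DERL2 without any 1 of the DMSO arrays or MI-389 replicate 1 or 3. DERL3 (0.19, interval 0.02 to 0.35) did not pass after adjustment.

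The 3 EDEM genes, lectins and mannosidases that mark glycoproteins for removal, did not move alike. EDEM1 read 10.54, 10.62 and 10.61 with DMSO and 9.95, 9.98 and 10.02 with MI-389 and fell by 0.60 (SE 0.05, adjusted p = 1.36e-05). EDEM3 rose by 0.48 (SE 0.06, adjusted p = 7.96e-05), and all 5 of its probe sets were called higher, from 0.36 to 0.70. EDEM2 rose by 0.42 (SE 0.07, adjusted p = 0.00132) and stood at 0.16 on the spike-in scale, where it was not called. Its other probe set, under the guide, gave 0.0079, and the call was also lost where that one was preferred. OS9, a lectin that hands glycoproteins to the ligase, differed by 0.16 (interval 0.01 to 0.31) and was not called after adjustment, and 0 of its 6 probe sets passed.

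In translocation, the channel genes among the members were lower. SEC61A2, a channel gene outside the members, differed by 0.08 and was not called, and SEC61G was not analysed. SEC61A1, the pore subunit, read 9.66, 9.71 and 9.63 with DMSO and 9.15, 9.06 and 9.13 with MI-389 and fell by 0.55 (SE 0.06, adjusted p = 2.87e-05), with all 3 probe sets lower and the largest at -0.92. SEC61B, a small subunit of the channel, fell by 0.33 (SE 0.06, adjusted p = 0.00249). SSR3, a subunit of the translocon-associated protein complex, fell by 0.45 (SE 0.06, adjusted p = 2.22e-04), and its 4 probe sets ranged from -0.45 to -1.21. SSR1 of the same complex differed by -0.09 in its main probe set, which was not called, but 4 of its 8 probe sets were called lower, between -0.45 and -0.68. TRAM1, a translocating chain protein, differed by -0.01 (interval -0.14 to 0.12). SEC24D, a cargo adaptor of the COPII coat that leaves the ER, differed by -0.18 and was not called.

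The choice of probe set therefore set the size of many changes. Of the 147 probe sets, 53 were called lower and 19 higher (36.1% and 12.9%), where 14.0% of all 49293 probe sets were lower and 14.0% higher, or 28.0% in either direction. There were 0 members with probe sets called in both directions. In 13 of the 26 members with 2 or more probe sets above the guide, the one of highest mean had the smallest change in size, as in HSPA5, CANX, SSR3 and DERL1. It did not in HYOU1, HERPUD1 and EDEM1, among others. The count to be had from a random order was not worked out. Probe sets of a gene share their target and are not replicates. As a measure of RNA quality, the difference between the probe sets at the 3′ and 5′ ends of the ACTB transcript averaged 1.30 log2 units with DMSO and 1.64 with MI-389, and was 1.91 on MI-389 replicate 3. For GAPDH it averaged -0.11 and 0.04. The part of these differences in the results was not tested.

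**Figure D4:**
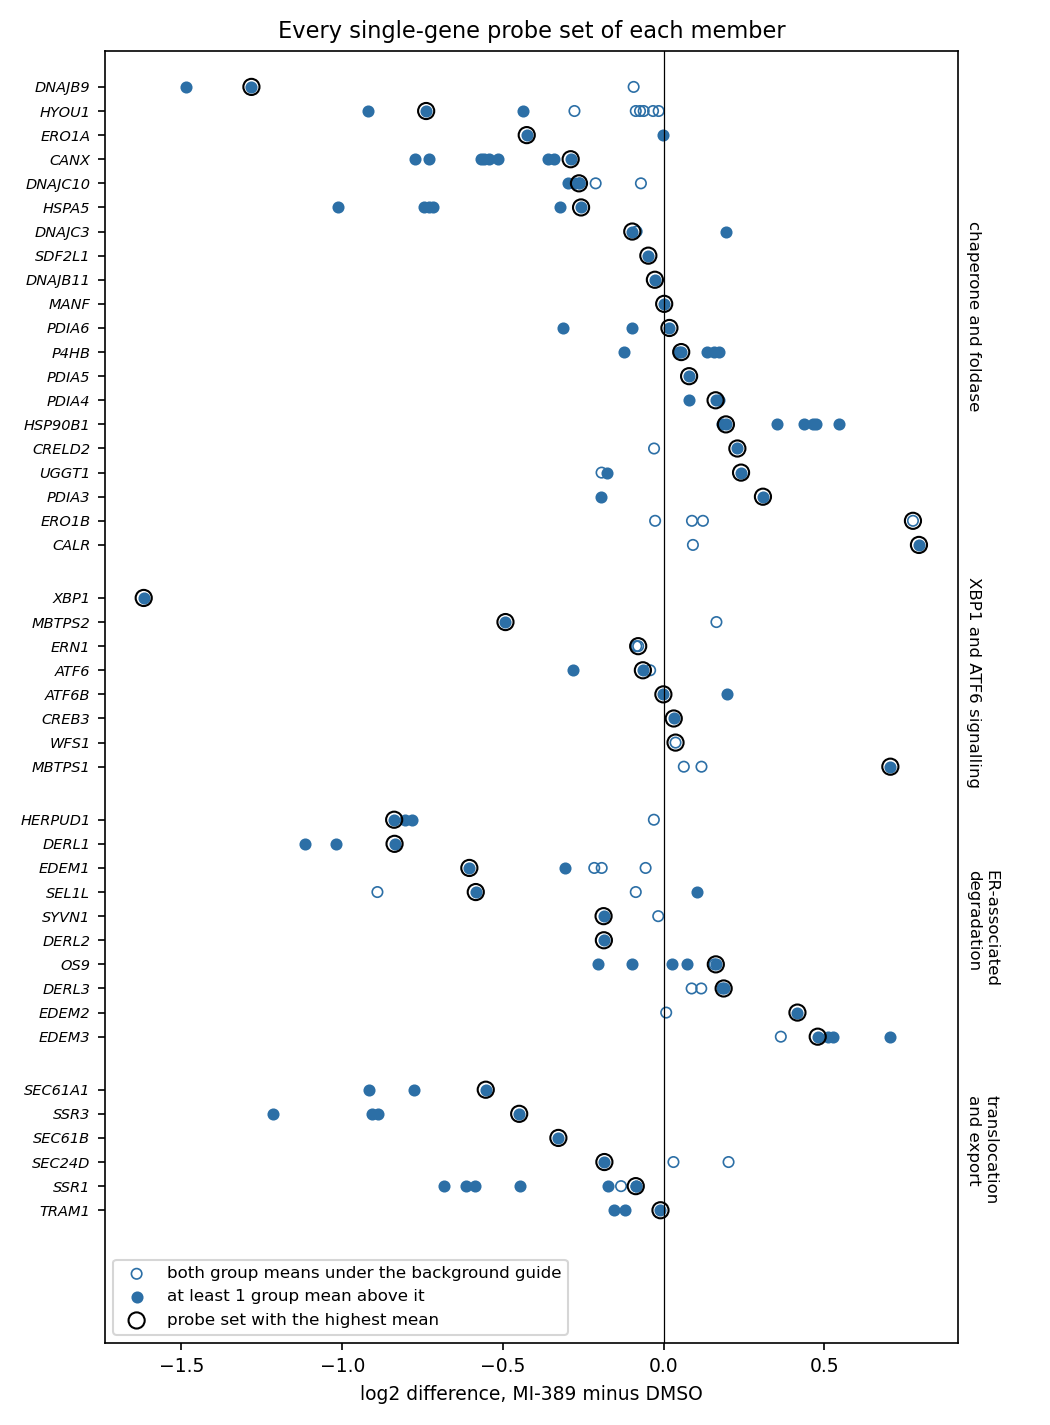
Log2 difference, MI-389 minus DMSO (x axis), of each probe set annotated to a single member, with genes in rows by class. Filled points had a group mean above the background guide of 5.49, open points did not, and a black ring marks the probe set of highest mean that represents the gene. The rings of HSPA5, CANX and SSR3 lie at the right end of their rows, nearest to 0, while the points of EDEM3 and HSP90B1 all lie above 0.

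Other genes of the pathway were taken from lists put together with earlier results of these data known. Their counts describe these lists and are not an independent comparison. Their counts are to be read beside all genes above the guide, of which 27.7% were called lower and 30.7% higher. Of all genes tested these shares were 15.7% and 18.4%, and several of the lists stand near such shares. In the PERK and ATF4 arm 10 of 12 fell and 1 rose, with a median of -1.05. Among those called lower, NUPR1 lay under the guide in both groups. ATF3, also called lower, had a DMSO mean of 5.49, the level of the guide, and lay under it with MI-389. TRIB3 (-4.17), ASNS (-2.94) and DDIT3 had the largest falls, and the gene of the sensor PERK, EIF2AK3, rose by 0.19. DDIT3, the gene of CHOP, lay under the guide with MI-389 and was at least 1.79-fold lower with the guide as its treated level. Of 9 other transducers and effectors 4 fell, among them BBC3 (-0.86), TMBIM6 (-0.52) and CREB3L2 (-0.20), and the stress kinase MAP3K5 rose by 0.78.

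Of 18 other folding enzymes 3 rose and 5 fell. The oxidase QSOX1 (0.87), the peroxiredoxin PRDX4 (0.80) and TMX4 (0.25) rose, and TMX2 (-0.55), TMX3 (-0.42) and FKBP11 (-0.40, under the guide in both groups) had the largest falls. Among 16 genes of N-glycosylation and glycan trimming 12 did not pass the test. The glucosidase subunit PRKCSH (-0.91), MAGT1 (-0.48) and STT3A (-0.25) fell, and the glucosidase MOGS rose by 0.32. Of 19 further genes of the translocon, the signal recognition particle and signal peptidase 8 fell and 4 rose. SEC11C, a catalytic subunit of signal peptidase, changed by -1.02, SRPRB by -0.48 and SRP72 by -0.42, while SEC62 (0.42), SRP14 (0.41) and SRP9 (0.20) rose.

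Of 19 other genes of ER-associated degradation 6 fell and 3 rose. The lectin ERLEC1 (-0.45), SELENOS (-0.45) and DNAJB12 (-0.44) had the largest falls, and ERLIN1 (0.48), NPLOC4 (0.37) and ERLIN2 (0.26) rose. In the COPII coat and its cargo receptors 7 of 17 fell and 3 rose, led by MCFD2 (-0.80), SURF4 (-0.56) and SAR1B (-0.32), and by SEC23A (0.47), SEC31A (0.26) and SEC16A (0.24). Of 5 receptors that pass ER to autophagy 4 fell, with CCPG1 at -2.78, TEX264 at -0.50 and RETREG1 at -0.39. Among 20 cytosolic and mitochondrial chaperones 4 rose and 7 fell, including HSPA1A (0.79), HSPA1B (0.45) and HSP90AA1 (0.37), and HSPA9 (-0.75), STIP1 (-0.33) and CCT2 (-0.33). HSPA1A and HSPA1B are near-identical copies, so their probe sets may read both.

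**Figure D5:**
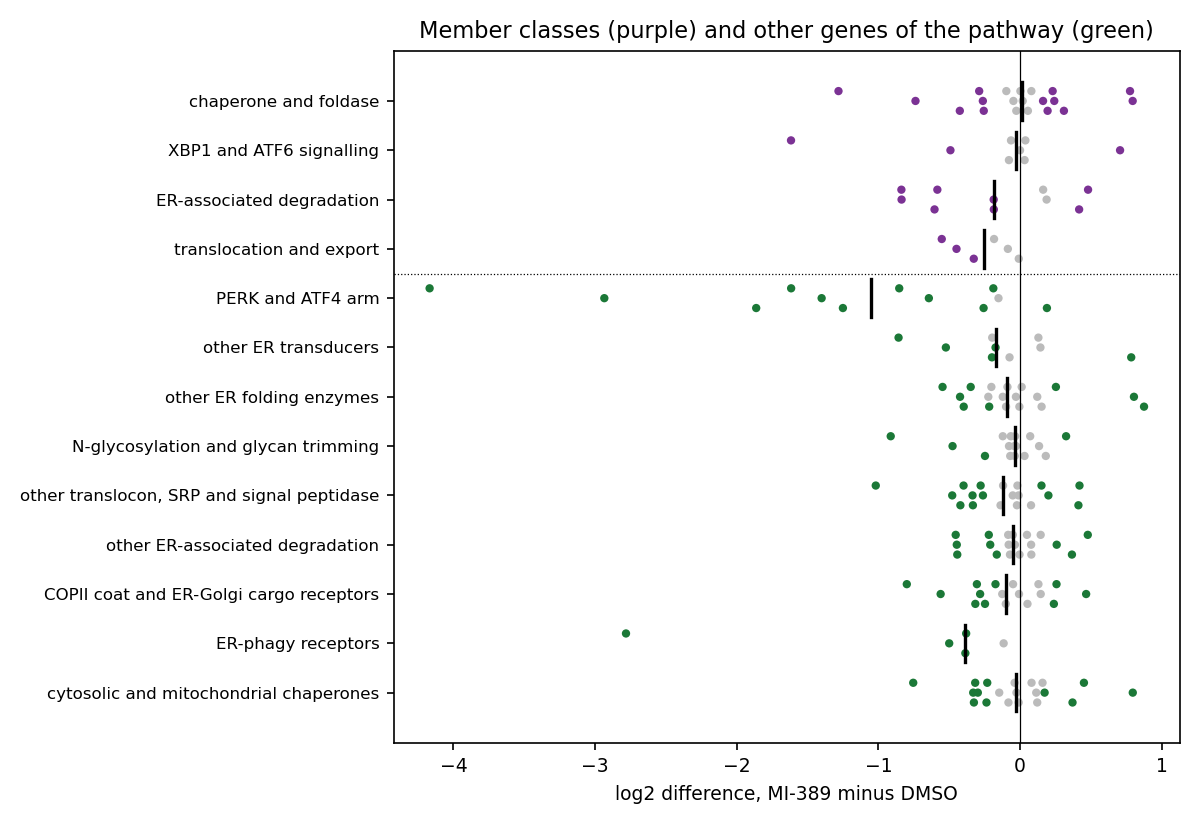
Log2 difference, MI-389 minus DMSO (x axis), of the genes in each of the 4 member classes (purple, above the dotted line) and of 9 further lists (green, below it). Grey points are genes that did not pass an adjusted p of 0.05, and black bars are medians. The median of the PERK and ATF4 arm is -1.05, and those of the member classes lie between -0.26 and 0.01.

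As a check of the cells, the myeloid markers PTPRC, FLT3, LYZ, CSF1R, CD4 and ITGAX were above the guide and SPI1 was not. Several of them moved with the treatment, as LYZ (2.06), CSF1R (1.65), ITGAX (0.65) and PTPRC (0.34) rose, FLT3 (-1.41) fell, and CD4 was not called. SPI1 was called lower with both groups under the guide. The part of these marker changes in the members' results was not tested. Plasma cells depend on XBP1, and of 7 markers of them 6 lay under the guide in both groups. The other one, PRDM1, had a mean of 4.24 with DMSO and 5.69 with MI-389, at least 1.15-fold higher with the guide as its control level. Of the markers of B, T, erythroid, epithelial and stromal cells all but PAX5 lay under it. Across probe sets, which are not independent replicates, the correlation between arrays was 0.997 to 0.998 within a group and 0.979 to 0.981 between the groups.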

How the data were processed

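The authors deposited 1 log2 value per probe set and array. RMA and limma were used, per the submitters' processing notes, with versions and settings not given in the sources used here. Residual background shrinks the fold of a dim probe set. Arrays have no read depth, and their small number sets how precise a mean is. Of 49386 probe sets 93 were controls, and 45253 were annotated to 1 gene, with symbols updated through Entrez IDs. Each gene was represented by its probe set of highest mean. The groups were compared with limma 3.58.1 in R 4.3.3 (lmFit, eBayes, two-sided, no covariates) and Benjamini-Hochberg adjustment over all genes or all probe sets. The script was tested on simulated data. A bound ("at least") sets the brighter group against 5.49 in place of the dimmer group. Members and lists were chosen with earlier results of these data known. Every member is named. Values on each array are given for members called with a change of at least 0.5 and for XBP1, ATF6, ERN1 and HSPA5. Those of HSP90B1 and all second probe set values were added after the data were seen. Of each further list up to 3 rising and 3 falling genes are named. The promoter search was also added after the data were seen. Alternatives were other scalings, filters, variance models, thresholds and probe set choices, a replicate block, and leaving out single arrays.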

Additional observations from a re-analysis of the deposited data

How the results depend on the processing

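Centring on the spike-ins moved the members called higher from 10 to 4 and lower from 17 to 31. Their probe sets moved from 19 to 9 higher and from 53 to 104 lower. Over all 18239 genes the same centring moved those called higher from 3352 to 1397 and lower from 2862 to 11056. It turned the sign of HSP90B1 (-0.0588), UGGT1 (-0.0117), PDIA4 (-0.0909) and CRELD2 (-0.0232), all then uncalled, and made PDIA6 (-0.23), P4HB (-0.20), MANF (-0.25), CREB3 (-0.22) and WFS1 (-0.22) called lower. It also made DNAJB11, DNAJC3, SDF2L1, ATF6, ATF6B, ERN1, SSR1, TRAM1 and SEC24D called lower, which were uncalled as deposited. That centring lowers all genes by the same 0.25. Against a fold of 1.2 (limma treat), 4 members were higher and 10 lower, and 8 and 33 probe sets. Where probe sets without the suffixes a, s or x were preferred, 4 members were called higher, and UGGT1 (-0.19), PDIA3 (-0.19) and CRELD2 (-0.0299) turned and were not called. The probe sets then read for UGGT1 and CRELD2 lay under the guide. So did those for MBTPS1 and EDEM2, which lost their calls. With the mean of all probe sets UGGT1 turned to -0.0424, and PDIA3, CRELD2 and SYVN1 were no longer called. The further quantile normalisation ended the calls of HSP90B1, SYVN1 and DERL2, and the common median that of PDIA4. The median member change of -0.0561 was -0.0751 with the arrays shifted to a common median, -0.0367 after a further quantile normalisation, -0.309 with the spike-in centring and -0.0884 with those suffixes last, and lay between -0.0565 and -0.0356 with single arrays left out. The cause was not tested. With the replicate block 8 members were higher and 15 lower, with HSP90B1, PDIA4, SYVN1 and DERL2 no longer called. Arrays with the same number did not deviate together (correlations of -0.18, 0.03 and -0.11 across probe sets), so the numbers were not used to pair samples. With single arrays left out 8 to 11 members were higher and 13 to 17 lower, and 17 to 23 and 44 to 54 of their probe sets.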
